A study of Mus musculus with 6 samples.

Results

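The genes described here encode eIF4F, the complex that recruits the small ribosomal subunit to capped mRNA, and the 4E-binding proteins that restrain it. The 10 members were chosen by name: the cap-binding protein genes Eif4e, Eif4e2 and Eif4e3, the helicase genes Eif4a1 and Eif4a2, the scaffold genes Eif4g1, Eif4g2 and Eif4g3, and the repressor genes Eif4ebp1 and Eif4ebp2. All 10 were among the 55385 genes in the count files and among the 18132 genes that were abundant enough to be tested. Total RNA depleted of ribosomal RNA was sequenced from mouse primary cortical neurons, taken from embryos at day 18 and cultured until day 16 in vitro. Controls and treated cells alike had received 2.5 uM AraC, a DNA synthesis inhibitor that limits dividing cells, for 24 hours from day 2. The 3 libraries labelled activated came from cells exposed to KCl for 5 minutes, which depolarises neurons, then washed and left to recover for 30 minutes. Untreated cells gave the 3 libraries labelled control. KCl appears in the labels both as 50 mM and as 50 uM. No genotype or strain is named. Whether the replicates were independent cultures is not stated, and the p-values then cover only the variation among these libraries, which may be technical.

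In eIF4F, eIF4E binds the methylated cap at the 5′ end of an mRNA, eIF4G is the scaffold that joins eIF4E, eIF4A and the ribosome-bound factor eIF3, and eIF4A is the RNA helicase that opens structure in the leader. The 4E-binding proteins occupy the eIF4G site on eIF4E until phosphorylation by mTORC1 releases them, which makes the amount of free eIF4E a point of control. In neurons this switch is known for its part in activity-dependent protein synthesis at synapses, and 4E-BP2 is the main 4E-binding protein of the brain. Protein amounts and phosphorylation were not measured in these data, which hold RNA counts only.

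Gene reads numbered 17752711 to 32740171 in libraries labelled activated and 22994946 to 32919975 in those labelled control. Levels are given in CPM, counts scaled to library size. Immediate early genes, which depolarisation induces within minutes, went against the labels: all 12 listed were lower in the libraries labelled activated (median log2 fold change −1.33), among them Egr1 (−0.94) and Nr4a1 (−1.05), both transcription factor genes. Every direction below therefore rests on labels that these genes contradict. General neuron markers were detected in every library, and of the 6 listed 4 were lower, 1 was higher and 1 did not pass. Map2, a dendritic microtubule protein gene and the one that was higher, had 2027 ± 121 CPM in libraries labelled activated and 1691 ± 72.1 CPM in those labelled control (SD, n = 3 each). Syt1, a synaptic vesicle protein gene, did not pass, at 1294 CPM in libraries labelled activated and 1351 CPM in those labelled control. The other 4 were Tubb3 (−0.79), Snap25 (−0.56), Stmn2 (−0.46) and Rbfox3 (−0.41). All 8 astrocyte markers were higher in libraries labelled activated, with summed levels of 1110 to 1370 CPM against 870 to 873 CPM in those labelled control. The glutamate transporter genes Slc1a2 (0.35) and Slc1a3 (0.69) were the most abundant of them. By contrast, 15 of 22 neuron markers were lower and 2 higher. Of the neuron markers, the 8 inhibitory ones summed to 893 to 1030 CPM in libraries labelled activated and 1410 to 1450 CPM in those labelled control, and the 8 excitatory ones to 2080 to 2250 CPM in libraries labelled activated and 1880 to 1980 CPM in those labelled control. The most abundant inhibitory markers, the GABA synthesis genes Gad1 (−0.81) and Gad2 (−0.70), were lower, and of the excitatory ones the kinase gene Camk2a (0.36) was higher and the vesicular transporter gene Slc17a7 (0.14) did not pass. Markers of other cells were higher in libraries labelled activated for 4 of 7 tested microglia genes (27.6 to 59.2 CPM summed, against 22.3 to 33.4 CPM), 4 of 5 oligodendrocyte lineage genes (55.1 to 64.5 CPM, against 36 to 40.9 CPM) and 4 of 6 endothelial, mural and fibroblast genes (279 to 325 CPM, against 173 to 199 CPM), and none was lower. The most abundant of these were C1qa (0.65) and C1qb (0.70) of microglia, Olig1 (0.54) and Olig2 (0.70) of the oligodendrocyte lineage, and Fn1 (0.79) and Col1a1 (0.45) of the last list, all on the log2 scale and all higher. For C1qa, C1qb and Col1a1 the values of the 2 groups overlapped, as they did for every tested microglia gene. The defining markers Cldn5 of endothelium, Mog of myelinating cells and P2ry12 of microglia were near 0, P2ry12 being the highest of these at 0.210 CPM on average in libraries labelled activated and 0.0954 CPM in those labelled control, and were too low to test. Mitochondrial transcripts took 21.3% to 25% of gene reads in libraries labelled activated and 14.7% to 17.1% in those labelled control. The part of these differences in the results below was not tested. In bulk RNA, fewer cells of a type and less RNA per cell cannot be told apart.

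Most transcripts of the complex itself were lower in the libraries labelled activated, and neither repressor transcript passed the test. In all, 7 of the 10 members fell and none rose (edgeR quasi-likelihood test, adjusted p below 0.05 over all tested genes), and the 7 were both helicase genes, the 3 scaffold genes and the cap-binding genes Eif4e and Eif4e2. Over all tested genes, 36.8% were called, 20.6% lower and 16.2% higher. Among the 8941 protein-coding genes of at least 10 CPM, the range in which 8 members lie, 37.3% were called lower. The members' median log2 fold change was −0.34, beside 0.04 over all tested genes and −0.10 over those abundant protein-coding genes. The 10 genes together took 0.139% to 0.145% of gene reads in libraries labelled activated and 0.189% to 0.202% in those labelled control. The direction depends on the scaling of the libraries: with libraries scaled to neuron markers, where the median over all tested genes was 0.41, 1 member was lower and 3 were higher. With total counts only, 68.7% of all calls were lower instead of 55.9%, and 45.1% with total counts that leave out mitochondrial genes; both left the same count of 7 lower members and none higher.

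Per length of exon, the scaffolds and helicases were the most abundant members, and the repressor Eif4ebp1 was the scarcest on average. Exon length is the union of all annotated exons of a gene, which can exceed its longest transcript. For Eif4a2 the 2 lengths are 5338 and 2708 bp, and for Eif4e2 they are 7497 and 3473 bp. The order among Eif4g1, Eif4g2, Eif4a1 and Eif4a2, and that among Eif4e, Eif4ebp2 and Eif4e2, therefore depends on the length used. In libraries labelled activated, Eif4g1 and Eif4g2 stood at 44.2 ± 2.86 and 43.4 ± 2.55 CPM per kb, with overlapping values, followed by Eif4a1 (33.2 ± 2.40) and Eif4a2 (30.1 ± 0.949), which overlapped too, and Eif4g3 (19.7 ± 0.642). In libraries labelled control the same 5 genes led, from 58.4 ± 2.08 CPM per kb for Eif4g2 to 24.4 ± 0.856 for Eif4g3. Eif4e, at 9.51 ± 0.277 CPM per kb in libraries labelled activated and 12.3 ± 0.572 in those labelled control, was thus the scarcer partner of the complex at the RNA level. Eif4ebp2 followed with 9.08 ± 0.313 CPM per kb in libraries labelled activated and 9.27 ± 0.434 in those labelled control. By exon length, Eif4e and Eif4ebp2 overlapped in the libraries labelled activated and did not overlap in those labelled control. This overlap depends on the length used. Exon length exceeds the longest transcript for Eif4e (6008 against 4991 bp) and equals it for Eif4ebp2 (5784 bp). Eif4e2, Eif4e3 and Eif4ebp1 came last, at 5.40, 3.09 and 2.16 CPM per kb in libraries labelled activated and 6.38, 2.64 and 1.75 CPM per kb in those labelled control.

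**Figure D1:**
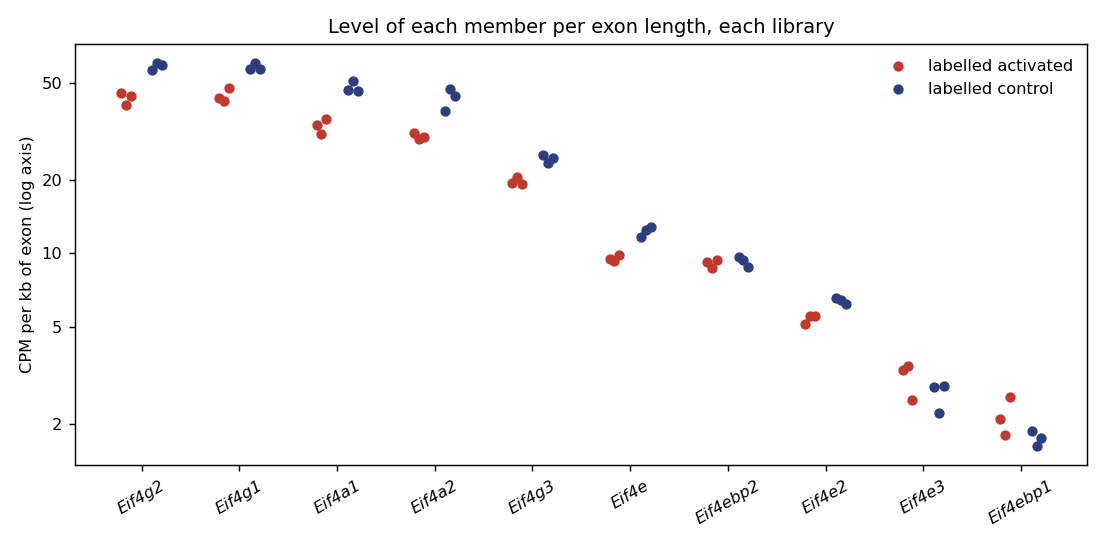
Level of each member in CPM per kb of exon (log axis), 1 point per library, with libraries labelled activated in red left of those labelled control in blue. Eif4g2, Eif4g1, Eif4a1 and Eif4a2 lie highest, and Eif4ebp1, at 2.16 and 1.75 CPM per kb on average, lies lowest in both groups.

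The helicase genes had the largest differences. Eif4a1 (ENSMUSG00000059796.16, chromosome 11, 69666936 to 69672423, minus strand), the main eIF4A of growing cells, had 145, 133 and 154 CPM in libraries labelled activated, against 203, 220 and 201 CPM in those labelled control. Every library labelled activated lay below every library labelled control. Its log2 fold change was −0.53 ± 0.07 (standard error; adjusted p by edgeR = 9.02e-05), a fall of 30.7%. Eif4a2 (ENSMUSG00000022884.15, chromosome 16, 23107444 to 23114136, plus strand), the paralogue that is prominent in brain, had 166, 156 and 159 CPM in libraries labelled activated, against 204, 250 and 236 CPM in those labelled control. These groups were apart as well, with a log2 fold change of −0.52 ± 0.07 (standard error; adjusted p by edgeR = 0.00017). Under the neuron marker scaling Eif4a1 kept its call at −0.16 (edgeR adjusted p = 0.0394), and Eif4a2 lost it at −0.15.

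All 3 scaffold genes fell. Eif4g1 (ENSMUSG00000045983.16, chromosome 16, 20668313 to 20692884, plus strand), which encodes the scaffold that binds eIF4E, eIF4A and eIF3, had 316, 306 and 346 CPM in libraries labelled activated, against 416, 437 and 414 CPM in those labelled control. The groups were apart, and the log2 fold change was −0.39 ± 0.07 (standard error; adjusted p by edgeR = 0.00051). Eif4g3, which encodes a second eIF4E-binding scaffold, had 214, 226 and 213 CPM against 279, 260 and 272 CPM in libraries labelled activated and labelled control, for a log2 difference of −0.31 ± 0.06 (standard error; adjusted p by edgeR = 0.0014). Eif4g2 encodes a shorter relative, also called DAP5, that lacks the eIF4E-binding region and serves cap-independent initiation. It had the highest CPM of the members, with 461, 412 and 450 CPM in libraries labelled activated, against 570, 611 and 600.4 CPM in those labelled control. Its log2 fold change was −0.43 ± 0.07 (standard error; adjusted p by edgeR = 0.00027). Under the neuron marker scaling the 3 values were −0.021, −0.063 and 0.063 for Eif4g1, Eif4g2 and Eif4g3, with no call.

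Of the cap-binding genes, 2 fell and 1 did not pass. Eif4e (ENSMUSG00000028156.12, chromosome 3, 138526179 to 138559696, plus strand), the cap-binding subunit itself, had 56.9, 55.6 and 58.9 CPM in libraries labelled activated, against 70.0, 74.6 and 76.7 CPM in those labelled control. The groups were apart by more than 10 CPM, and the log2 fold change was −0.37 ± 0.06 (standard error; adjusted p by edgeR = 0.00051), a fall of 22.6%. Eif4e2 encodes 4EHP, which binds the cap without joining eIF4G and represses translation of its targets. It had 38.5, 41.6 and 41.4 CPM in libraries labelled activated, against 48.9, 48.2 and 46.3 CPM in those labelled control, with a log2 fold change of −0.24 ± 0.06 (standard error; adjusted p by edgeR = 0.010). This call was lost without activated replicate 1 (−0.21; edgeR adjusted p = 0.0515). Both changed sign under the neuron marker scaling, to 0.00085 for Eif4e and 0.13 for Eif4e2, with no call.

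Eif4e3, a family member that binds the cap in an unusual way, had 8.33, 8.69 and 6.27 CPM in libraries labelled activated, against 7.10, 5.59 and 7.21 CPM in those labelled control. The groups overlapped and the log2 fold change of 0.21 ± 0.15 (standard error; adjusted p by edgeR = 0.28) had a 95% interval from −0.11 to 0.53. Without activated replicate 3 it was 0.35 and was called (edgeR adjusted p = 0.0481), and with neuron marker scaling it was 0.59 and called. It was counted from 132 to 244 reads per library, and 14.8% of its exon length overlaps the gene model Gm20696 on the same strand, so reads there cannot be assigned to either.

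Neither repressor gene passed the test. Eif4ebp2 (ENSMUSG00000020091.15, chromosome 10, 61428491 to 61452661, minus strand) had 53.0, 50.5 and 54.0 CPM in libraries labelled activated, against 55.8, 54.1 and 50.9 CPM in those labelled control. The groups overlapped, and the log2 fold change was −0.03 ± 0.06 (standard error; adjusted p by edgeR = 0.74). Its 95% interval ran from −0.17 to 0.11, a change of −10.9% to 7.71%, so a decrease as large as that of Eif4e lay outside it. Eif4ebp1, the 4E-binding protein that prevails outside the brain, was scarce, with 4.58, 3.95 and 5.68 CPM in libraries labelled activated, against 4.10, 3.56 and 3.84 CPM in those labelled control. These groups overlapped at 77 to 181 reads per library, and the log2 fold change of 0.31 ± 0.16 (standard error; adjusted p by edgeR = 0.15) had a 95% interval from −0.04 to 0.66. Leaving out activated replicate 3 gave 0.14 and leaving out activated replicate 2 gave 0.44, neither of them called. Under the neuron marker scaling both repressor genes were called higher, at 0.34 for Eif4ebp2 and 0.67 for Eif4ebp1.

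**Figure D2:**
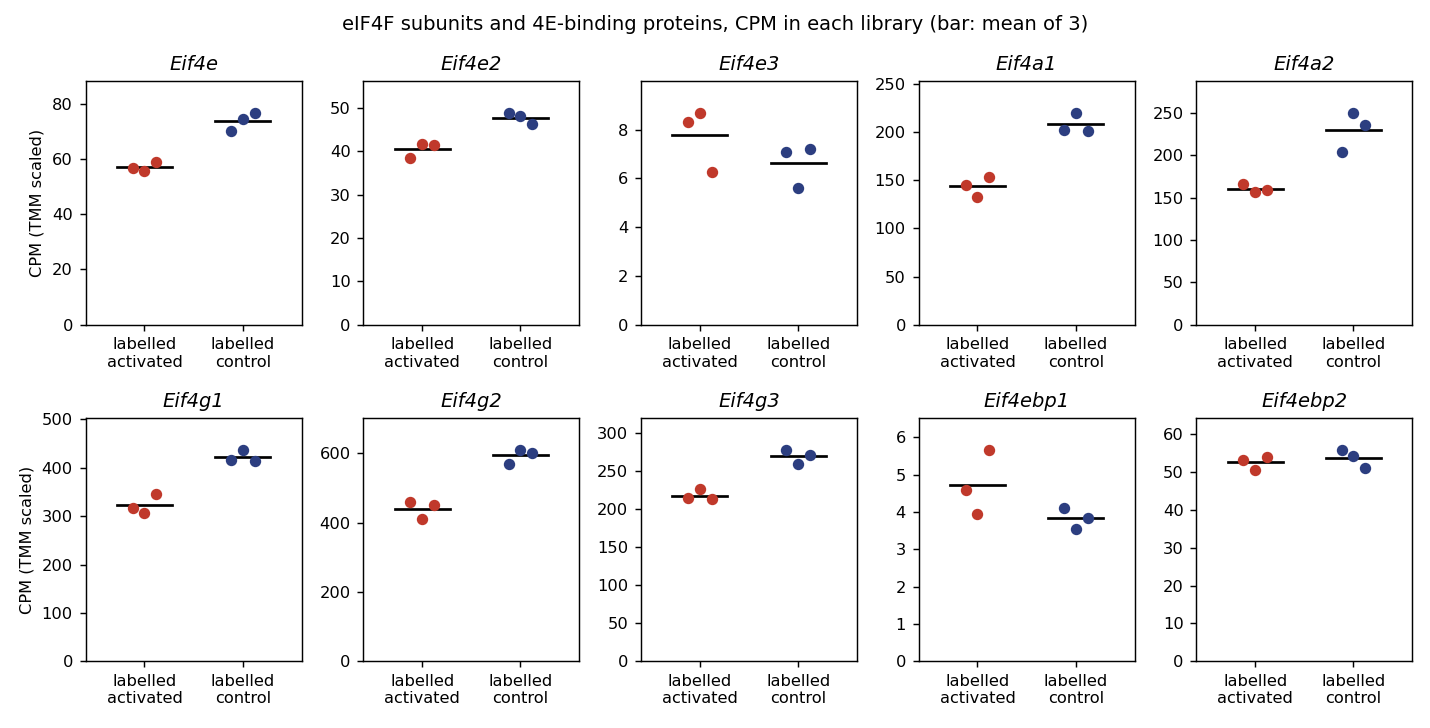
CPM of each member in the 3 libraries labelled activated (red, left) and the 3 labelled control (blue, right), with bars at the group means and each axis starting at 0. For 7 members all red points lie below all blue ones, whereas the groups overlap for Eif4e3, Eif4ebp1 and Eif4ebp2.

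**Figure D3:**
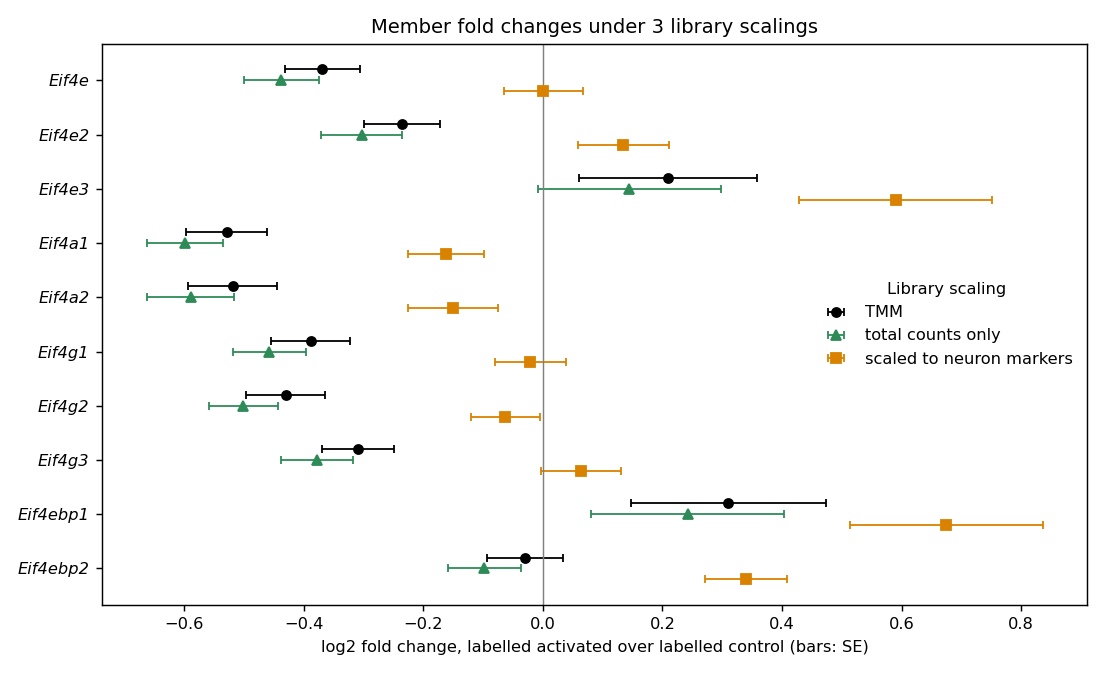
Log2 fold change of each member with its standard error under 3 scalings of the libraries: TMM (black circles), total counts only (green triangles) and neuron markers (orange squares). The order of the members along the axis is much the same in each scaling, with the helicase genes leftmost, but the neuron marker scaling moves all of them to the right, to −0.16 for Eif4a1 and 0.34 for Eif4ebp2.

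Groups that did not overlap were seen for 7 of 10 members, all with the libraries labelled activated below, and for 49% of all tested genes, of which those with libraries labelled activated below made up 26.4% of all tested genes. Ratios between members within a library give a comparison that library scaling cannot move, and 6 were computed. The log2 ratio of Eif4e to Eif4ebp2, the cap-binding protein transcript over that of its main neuronal repressor, was 0.10, 0.14 and 0.13 in libraries labelled activated, against 0.33, 0.46 and 0.59 in those labelled control. All 3 libraries labelled activated lay below all 3 labelled control, a difference of −0.34 ± 0.08 (SE of the difference; two-sided exact permutation p = 0.1, the smallest that 3 against 3 libraries allow; 0.3 after Benjamini-Hochberg adjustment over the 6 ratios). The log2 ratio of Eif4ebp1 to Eif4ebp2 was −3.52, −3.67 and −3.25 in libraries labelled activated, against −3.76, −3.92 and −3.72 in those labelled control, a difference of 0.32 ± 0.14 with the same exact p of 0.1. Without activated replicate 3 this difference was 0.20. The design cannot reach a p below 0.05 for any ratio.

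Ratios between paralogues of the complex overlapped between the groups. Eif4a1 over Eif4a2 had log2 ratios of −0.20, −0.23 and −0.05 in libraries labelled activated, against −0.01, −0.19 and −0.23 in those labelled control (difference −0.02 ± 0.09; exact permutation p = 0.6). The groups overlapped, and the difference turned positive without activated replicate 1 or 2 or control replicate 1, reaching 0.049 at most. Per exon length, Eif4a1 supplied 52.4% ± 1.64 of the eIF4A transcripts in libraries labelled activated and 52.7% ± 2.02 in those labelled control (SD, n = 3 each). Exon length is the union of annotated exons, 4334 bp for Eif4a1 and 5338 bp for Eif4a2. The longest transcripts have 3167 and 2708 bp, so which gene supplied more depends on the length used. Eif4g1 differed by 0.04 ± 0.05 relative to Eif4g2 (exact permutation p = 0.5) and by −0.08 ± 0.09 relative to Eif4g3 (exact permutation p = 0.4). Eif4e relative to Eif4e2 differed by −0.13 ± 0.07, with overlapping groups (exact permutation p = 0.2). Eif4e made up 52.8% ± 2.17 of the eIF4E family per exon length in libraries labelled activated and 57.7% ± 1.88 in those labelled control, while the share of Eif4e3 was 17.1% ± 2.73 in libraries labelled activated and 12.4% ± 1.59 in those labelled control. Exon length and longest transcript are 6008 and 4991 bp for Eif4e, but 7497 and 3473 bp for Eif4e2. Whether Eif4e is the majority of the family therefore depends on the length used. The share of Eif4e3 rests on 132 to 244 reads per library, and none of these shares was tested.

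**Figure D4:**
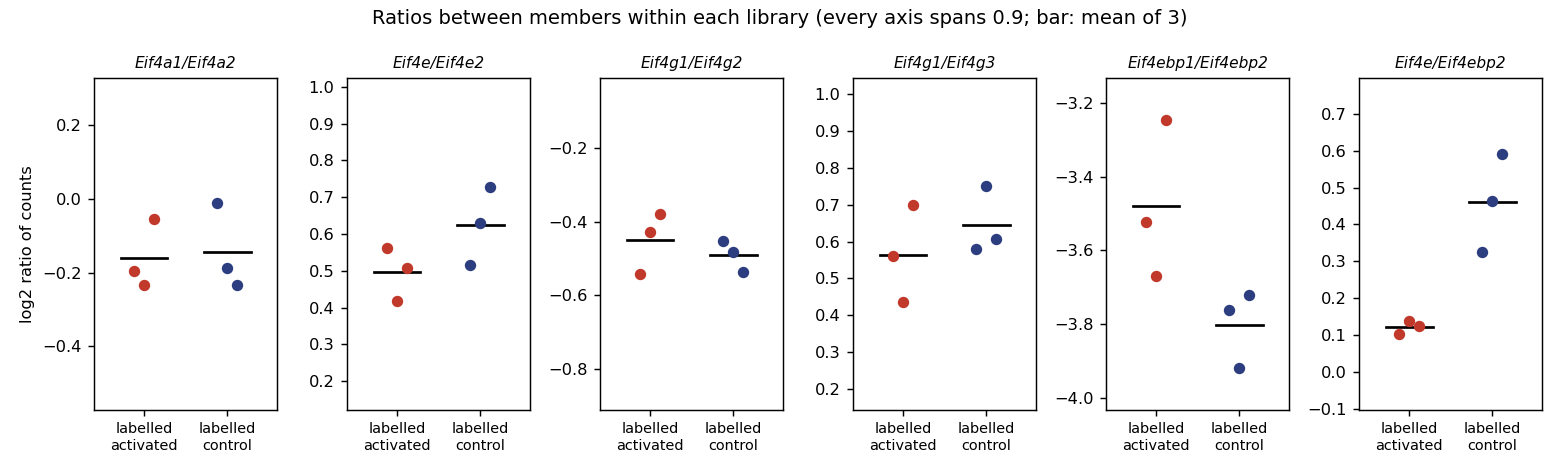
Log2 ratio of counts between pairs of members in each library, labelled activated in red on the left and labelled control in blue on the right, with group means as bars and every axis spanning the same range. The groups stand apart for Eif4ebp1/Eif4ebp2 and Eif4e/Eif4ebp2 and overlap for the other 4 ratios.

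Promoters of 4 of the 7 called members, picked by name, are shown. They are the 250 bases before the first RefSeq start listed for each gene in GRCm38.p6, printed 5′ to 3′ on the gene's strand in the order Eif4e (chr3:138525941-138526190, plus), Eif4a1 (chr11:69672424-69672673, minus), Eif4g1 (chr16:20672477-20672726, plus) and Eif4a2 (chr16:23107218-23107467, plus). Capitals mark the E-box CACGTG, the palindromic element that factors such as MYC and USF recognise.
Eif4e: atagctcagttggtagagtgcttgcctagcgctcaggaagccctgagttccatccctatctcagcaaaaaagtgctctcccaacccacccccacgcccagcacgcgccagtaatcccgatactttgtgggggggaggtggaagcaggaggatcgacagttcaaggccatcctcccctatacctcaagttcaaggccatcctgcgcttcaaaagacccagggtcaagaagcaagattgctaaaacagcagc
Eif4a1: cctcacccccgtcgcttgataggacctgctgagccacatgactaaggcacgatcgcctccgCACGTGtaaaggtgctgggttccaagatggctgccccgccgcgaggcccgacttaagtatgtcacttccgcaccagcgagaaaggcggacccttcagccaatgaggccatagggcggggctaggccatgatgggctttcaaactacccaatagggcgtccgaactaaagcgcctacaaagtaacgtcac
Eif4g1: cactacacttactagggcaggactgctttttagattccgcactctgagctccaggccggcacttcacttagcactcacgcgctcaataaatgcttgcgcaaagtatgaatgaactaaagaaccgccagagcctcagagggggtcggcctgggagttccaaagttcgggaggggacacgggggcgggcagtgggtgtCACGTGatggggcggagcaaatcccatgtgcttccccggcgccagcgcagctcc
Eif4a2: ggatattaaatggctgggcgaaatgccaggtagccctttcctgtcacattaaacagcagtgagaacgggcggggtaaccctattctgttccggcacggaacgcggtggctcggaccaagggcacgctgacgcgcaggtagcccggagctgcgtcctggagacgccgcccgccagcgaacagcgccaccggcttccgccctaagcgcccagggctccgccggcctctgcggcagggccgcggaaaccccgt

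Among the 7 members with a start in the RefSeq table, 3 held CACGTG in such a window. All 3 are among the genes printed, whereas the called members Eif4e2 and Eif4g3, which held none, were not printed. Shared control of these genes was not tested. Eif4a1 held 1 copy, beginning 189 bases before its start, and Eif4g1 held 1 at 54 bases. Eif4e held none before its first listed start and 2 before its second, at 228 and 64 bases, but all 250 bases of that second window lie in exon and UTR annotated by GENCODE, and it is not printed. The motif reads the same on both strands, and 6.86% of 27018 genes with a window held it. Eif4e2, Eif4a2, Eif4g3, whose windows also lie in annotated UTR, and Eif4ebp2 held none. The full cAMP response element TGACGTCA, which CREB binds, was in none of these windows and in 1.77% of genes. Its shorter form TGACG, searched on both strands and contained in the full element, was in those of Eif4e (second start), Eif4e2, Eif4a1, Eif4a2 and Eif4ebp2 and in 19.8% of genes. Eif4e3, Eif4g2 and Eif4ebp1 were not matched.

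The counts in the gene lists that follow stand beside 37.3% lower and 14.3% higher among protein-coding genes of at least 10 CPM, the range in which most list genes lie. Of 16 partners and regulators, 9 fell, 1 rose and 6 did not pass by edgeR. Their median log2 fold change was −0.27, beside −0.10 over those abundant protein-coding genes and 0.04 over all tested genes. The helicase cofactors Eif4h and Eif4b stood at 139 ± 4.17 and 114 ± 6.30 CPM in libraries labelled activated, against 184 ± 7.00 and 151 ± 8.85 CPM in those labelled control. Their log2 fold changes were −0.40 ± 0.06 and −0.41 ± 0.07 (standard error; adjusted p by edgeR = 0.00023 and 0.00038). Pdcd4, an inhibitor of eIF4A, fell as well (−0.45 ± 0.07), as did Paip2b, an inhibitor of poly(A)-binding protein (−0.50 ± 0.08). The poly(A)-binding protein gene Pabpc1 did not pass, at 247 CPM in libraries labelled activated and 261 CPM in those labelled control, nor did the eIF4E kinase genes Mknk1 (0.12) and Mknk2 (−0.13). Cyfip1, whose product binds eIF4E with FMRP, was the member that rose (0.35), while Cyfip2 had a log2 fold change of −0.34. Pabpc1, both Mknk genes and both Cyfip genes were picked after seeing their values.

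The eIF3 subunits, which link eIF4G to the ribosome, numbered 14, of which 12 fell and 2 did not pass, and all 14 log2 fold changes lay between −0.53 and −0.22. With 1 library left out, 9 to 13 were called lower. Under the neuron marker scaling none was called lower or higher. The leading members were Eif3b (−0.50 ± 0.07), Eif3g (−0.53 ± 0.09), Eif3a (−0.31 ± 0.06) and Eif3c (−0.39 ± 0.08). Eif3b had 69.5 ± 3.62 CPM in libraries labelled activated and 98.6 ± 7.60 CPM in those labelled control (SD, n = 3 each; edgeR adjusted p = 0.00014).

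The list of start-site selection and subunit joining held 16 genes. It included Eif2b1 to Eif2b5, named for their function, which encode eIF2B, the factor that recycles the initiation factor eIF2. All of these but Eif2b3 fell. Of the 16 genes, 13 fell, none rose and 3 did not pass (median −0.35). With 1 library left out, 10 to 13 were called lower, and under the neuron marker scaling 1 was lower and 1 higher. The start-codon scanning factors Eif1 (−0.50 ± 0.07) and Eif1ax (−0.55 ± 0.08), the GTPase activator Eif5 (−0.40 ± 0.06) and the large-subunit factor Eif6 (−0.47 ± 0.08) had the smallest p of those that fell. The elongation list held 9 genes, those of elongation factors and Eef2k, the eEF2 kinase gene, which was named for its function. Of the 9, 6 fell and 3, Eef2k among them, did not pass (median −0.27), but 3 fell without control replicate 2. The 6 that fell included Eef1a2, the eEF1A of mature neurons, with 214 ± 12.6 CPM in libraries labelled activated and 316 ± 3.76 CPM in those labelled control (log2 fold change −0.56 ± 0.06; edgeR adjusted p = 3.69e-05). Eif5a (−0.43), Eif5a2 (−0.43) and Eef1d (−0.27) fell too.

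The mTORC1 pathway, which phosphorylates the 4E-binding proteins, was represented by 20 genes, of which 9 fell, 1 rose and 10 did not pass (median −0.21). The share that fell, 45%, lies near the 37.3% of abundant protein-coding genes. Without control replicate 2, 2 genes rose. The lower members with the smallest p were Sesn3 of the sestrin family, which restrains the pathway (−0.41 ± 0.06), the Rag GTPase genes Rragb (−0.56 ± 0.08) and Rragd (−0.43 ± 0.07), and Rheb, the small GTPase that activates mTORC1 (−0.45 ± 0.07). The kinase gene Mtor itself had 150 CPM in libraries labelled activated and 169 CPM in those labelled control (log2 fold change −0.18; edgeR adjusted p = 0.0251). Rps6kb2, a ribosomal protein S6 kinase gene, was the one that rose (0.51 ± 0.10; edgeR adjusted p = 0.0015). Mtor and Rps6kb2 were picked after seeing their values. Over the 5 lists together, 49 of 75 genes were lower (65.3%) and 2 higher, beside 37.3% and 14.3% of protein-coding genes of at least 10 CPM and 20.6% and 16.2% of all tested genes. Under the neuron marker scaling 2 were lower and 21 higher.

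**Figure D5:**
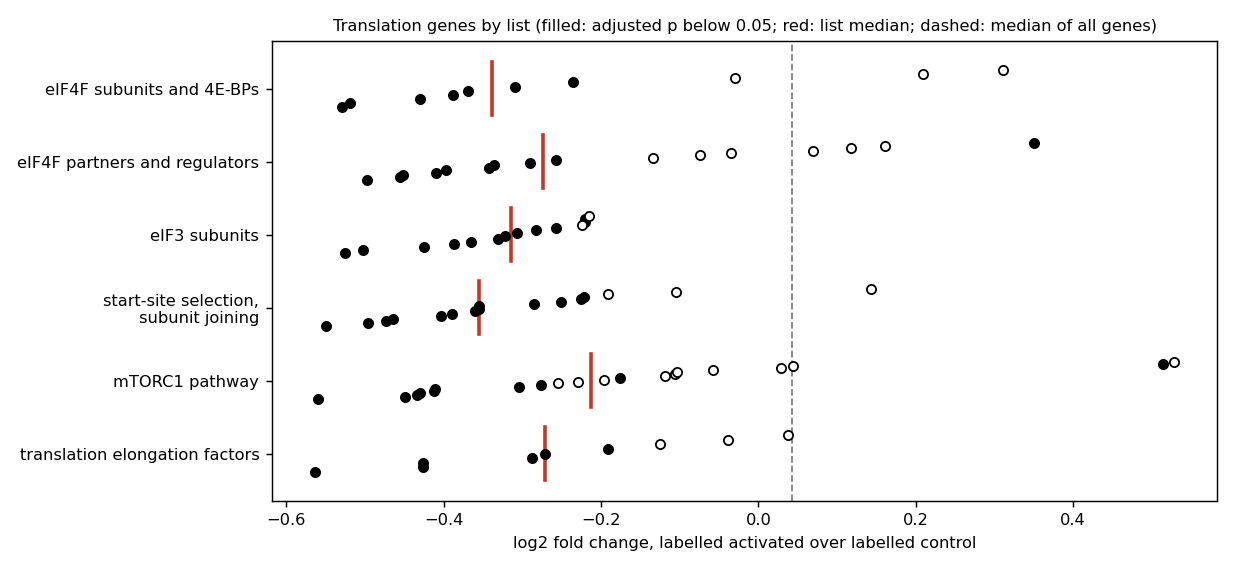
Log2 fold change of every tested gene in the 6 lists, with filled points past an edgeR adjusted p of 0.05, red bars at list medians and a dashed line at 0.04, the median of all tested genes. Every list median lies left of the dashed line, from −0.21 for the mTORC1 pathway to −0.35 for start-site selection and subunit joining, and the members of the complex have a median of −0.34. The median over protein-coding genes of at least 10 CPM, not drawn, was −0.10.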

How the data were processed

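Reads had been aligned to mm10 with STAR 2.5.2b, with edgeR named for differential expression, per the submitters' processing notes. The libraries were strand-specific paired reads of 150 bp, per the labels' protocols. The deposited files hold raw read counts per gene. The annotation release was not given in the sources used here. The reverse-strand counts were used, since the opposite strand held 4.05% to 4.29% of both strands. The 4 lines naming no gene were left out of library sizes. Reads outside exons annotated on the counted strand made up 28.3% to 37.3% of all reads in libraries labelled activated and 25.1% to 29.6% in those labelled control. The other 3 lines held 7.49% to 9.88% (unmapped), 5.17% to 6.34% (multimapping) and 0.736% to 0.977% (ambiguous).

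Promoter sequences came from RefSeq (GRCm38.p6). Names, positions and exon lengths came from GENCODE M21 (GRCm38), which held 55144 of 55385 identifiers. Genes were filtered with filterByExpr (minimum count 10, total 15), scaled by TMM, and compared with edgeR 4.0.16 (R 4.3.3) with no other term, adjusting by Benjamini-Hochberg. CPM are TMM-scaled counts, with standard errors from the fold change and its F statistic. Ratios used a pseudocount of 0.5 counts. Intervals and read numbers cover only the error of these libraries. The fit was checked on simulated counts. Members, lists and tests were chosen with earlier results of these data known. Besides all members, the text names the 4 genes with the smallest p past the threshold in each translation list, and of the other lists the 2 most abundant. Genes at or near 0 in the marker lists, the other general neuron markers and those so described in the text were named outside this rule. Alternatives were DESeq2 1.42.0 size factors and Wald test, total counts, neuron marker scaling (22 genes), 2 other filters, the replicate number as a block, unstranded counts, offsets for transcript length and GC content, and each library left out. Total counts without mitochondrial genes were added after the data were seen. Plots used matplotlib 3.10.9.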

Additional observations from a re-analysis of the deposited data

How the results depend on the processing

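Across all alternatives except the neuron marker scaling, and with 1 library left out, 6 or 7 members were lower. Scaled to neuron markers, the calls were 10079 higher and 394 lower (3.76% lower), the median of all tested genes was 0.41, 3 members were higher and 1 lower, and of the translation list genes 21 were higher and 2 lower. There the log2 values were 0.00085 for Eif4e, 0.13 for Eif4e2, 0.59 for Eif4e3, −0.15 for Eif4a2, −0.021 for Eif4g1, −0.063 for Eif4g2, 0.063 for Eif4g3, 0.67 for Eif4ebp1 and 0.34 for Eif4ebp2. By construction this scaling sets the mean of the 22 neuron markers to no change, and under TMM most of these were called lower, while Map2 and Camk2a were called higher. The value of Eif4ebp2 also turned to 0.0089 with the filter of 1 CPM in 3 libraries and 0.027 with total counts that leave out mitochondrial genes, and the median of all tested genes to −0.025 with total counts and −0.014 with the length and GC offsets. Leaving out each library gave 0 to 1 members higher, 6 to 7 lower and 2 to 4 translation list genes higher. Log2 fold changes then ranged from −0.26 to −0.21 for Eif4e2, 0.10 to 0.35 for Eif4e3, 0.14 to 0.44 for Eif4ebp1 and −0.064 to 0.0089 for Eif4ebp2, and the difference in the Eif4a1/Eif4a2 ratio from −0.071 to 0.049, in Eif4e/Eif4e2 from −0.18 to −0.077, in Eif4g1/Eif4g2 from 0.0052 to 0.088, in Eif4g1/Eif4g3 from −0.15 to −0.016, in Eif4ebp1/Eif4ebp2 from 0.20 to 0.42 and in Eif4e/Eif4ebp2 from −0.41 to −0.27. Elongation factor genes called lower ranged from 3 to 6, with 3 without control replicate 2. The replicate block left 7 members lower and none higher, and 42 translation list genes lower. Same-numbered libraries deviated with correlations of −0.014, −0.18 and −0.22, and differently numbered ones with −0.043 to 0.21. Deviations were taken from each group's own mean of 3 libraries, which ties these values to each other. They cannot settle whether same-numbered libraries share a culture. Depth limits Eif4e3 and Eif4ebp1 most, at 77 to 244 reads per library.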
